A study of Homo sapiens with 3 samples.

Results

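The transcripts described here encode 10 proteins of extracellular nucleotide and adenosine signalling: the ATP-gated channels P2RX1, P2RX4, and P2RX7, the G protein-coupled nucleotide receptors P2RY2, P2RY6, P2RY13, and P2RY14, the cell-surface enzymes ENTPD1 (CD39) and NT5E (CD73), and adenosine deaminase (ADA). They were taken by gene name from the array annotation. All 10 genes had a probe, with 16 probes in all, among 22705 gene names on the array that matched a RefSeq symbol or synonym. The cells were THP-1, a line derived from a human monocytic leukemia. In all 3 samples they were differentiated into macrophages with 100 ng/mL of the phorbol ester PMA for 24 to 36 h and then left overnight in fresh medium, and the labels place each sample at 4 h. Ctrl received no further agent that the labels name, IMQ received imiquimod, and IMQ+X received imiquimod together with an agent written X. The series title and treatment protocol name only 1 other compound, DMD, a methoxylated methylbenzenediol isolated from the fungus Antrodia cinnamomea and given before IMQ, so X was read as DMD. The doses of IMQ and DMD and the interval between them are not given in the labels.

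Each condition was measured on 1 array (1 sample, no replicate), so no comparison below has a test, and no difference could be set against the spread between cultures. The values are intensities of a one-colour array, quantile normalized by the authors, and differences are given on the log2 scale, where 1 is a 2-fold difference. The only error that could be attached was the SD of a difference between repeated spots of the nearest brightness, which covers noise within an array and nothing of the variation between cultures. For the dimmest probes it is only approximate. P2RY14 and the dim ENTPD1 probes, for example, shared a spot SD of 0.17 on the IMQ+X array despite their different intensities. All 3 arrays lay on 1 slide. The number of arrays limits the precision, and since bulk RNA was hybridised, fewer cells with a transcript and less transcript per cell cannot be told apart.

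ATP leaves macrophages when they are injured or stimulated, through pannexin and connexin channels or by vesicular release. P2X receptors open a cation channel when they bind ATP, and P2X7 is known in macrophages for the potassium efflux that triggers the NLRP3 inflammasome and the release of interleukin-1β. P2Y receptors sense ATP, UTP, ADP, UDP, or UDP-sugars through G proteins. CD39 strips phosphates from ATP and ADP to leave AMP, CD73 turns AMP into adenosine, adenosine acts on its own receptors, and ADA converts it to inosine.

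Most of these genes differed little between the arrays, and P2RX7 differed the most when each gene was read from its brightest probe. All 3 P2RX7 probes were about 2-fold brighter on the IMQ array than on the Ctrl array, and nearly as bright on the IMQ+X array as on the IMQ array. Read in the same way, NT5E had the largest difference between IMQ+X and IMQ. Both of its probes were lower with IMQ+X than with IMQ under each scaling tried, while their position relative to Ctrl depended on the scaling. P2RY6 was lower on both arrays that received IMQ. P2RY14 was not well above background on any array.

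The array reads a transcript through probes of 60 bases. A probe each of P2RX7 and NT5E is shown, in the sense of the mRNA and 5′ to 3′, since they identify what was hybridised for the genes with the largest differences. Both were judged to lie in the protein-coding part of the transcript from background knowledge of these proteins, not from a gene model. No letters are in capitals, since no part of a probe is singled out. The position of the P2RX7 probe in the hg19 genome is chr12:121613218-121613277 on the plus strand. The NT5E probe lies at chr6:86176992-86181005 on the plus strand, where its 60 bases are spread over 4014 bases of genome, so it spans the junction of spliced exons.
P2RX7: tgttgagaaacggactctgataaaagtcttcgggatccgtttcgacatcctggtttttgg
NT5E: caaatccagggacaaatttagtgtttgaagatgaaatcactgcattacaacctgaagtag

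Among the P2X receptors, P2RX7 was read by 3 probes. The brightest lay at chr12:121625756-121625815 (plus strand) and gave a normalized intensity of 789 for Ctrl, 1584 for IMQ, and 1515 for IMQ+X. The next lay at chr12:121623474-121623533 (plus strand) and gave 462, 963, and 912 in the same order. The coding probe shown above was dim, with 22.04, 46.0, and 39.7, and was well above background on each array. For each probe the Ctrl array was the lowest, and the values of the IMQ and IMQ+X arrays lay close together. The log2 difference between IMQ and Ctrl was 1.005 with the first probe (SD of repeated spots 0.08), 1.06 with the second (0.08), and 1.06 with the third (0.35), or 2.01-, 2.08-, and 2.09-fold. The 3 probes thus lay within 0.06 of each other for this difference. The annotation of the brightest probe lists a long noncoding RNA next to P2RX7 beside the gene itself, and the pixels of its spot were more uneven than those of most spots, at percentiles of 98.1, 94.9, and 99.2 of the Ctrl, IMQ, and IMQ+X arrays. The other probes gave the same direction under each of 6 scalings of the arrays. The size held less well, since the second ranged from 0.66 to 1.11 and the dim coding probe from 0.30 to 1.06, with its lowest value under normexp background correction.

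The P2RX7 probes differed between IMQ+X and IMQ by -0.06 (SD of repeated spots 0.07), -0.08 (0.07), and -0.21 (0.28). These differences were near or within the noise of repeated spots. Against Ctrl, the IMQ+X array was higher by 0.94, 0.98, and 0.85. Each pair of these comparisons shares an array, so the differences are not independent of each other.

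P2RX4, an ATP channel found mainly on lysosomal membranes in macrophages, is encoded next to P2RX7, with 46.0 kb between their nearest probes. Its probe (chr12:121671848-121671907, plus strand) gave 26418 for Ctrl, 31117 for IMQ, and 31463 for IMQ+X. The IMQ array was higher than Ctrl by 0.24 (SD of repeated spots 0.06), a fold of 1.18, and IMQ+X differed from IMQ by 0.02 (0.06). P2RX1, a fast-desensitizing channel best known from platelets and smooth muscle, gave 304, 299, and 266 with its probe at chr17:3800184-3800243 (minus strand). Its IMQ array lay within noise of Ctrl, with a difference of -0.02 (0.10), and the IMQ+X array was lower than IMQ by -0.17 (0.10). P2RX4 and P2RX1 therefore both stayed far below a 2-fold difference, unlike P2RX7.

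**Figure D1:**
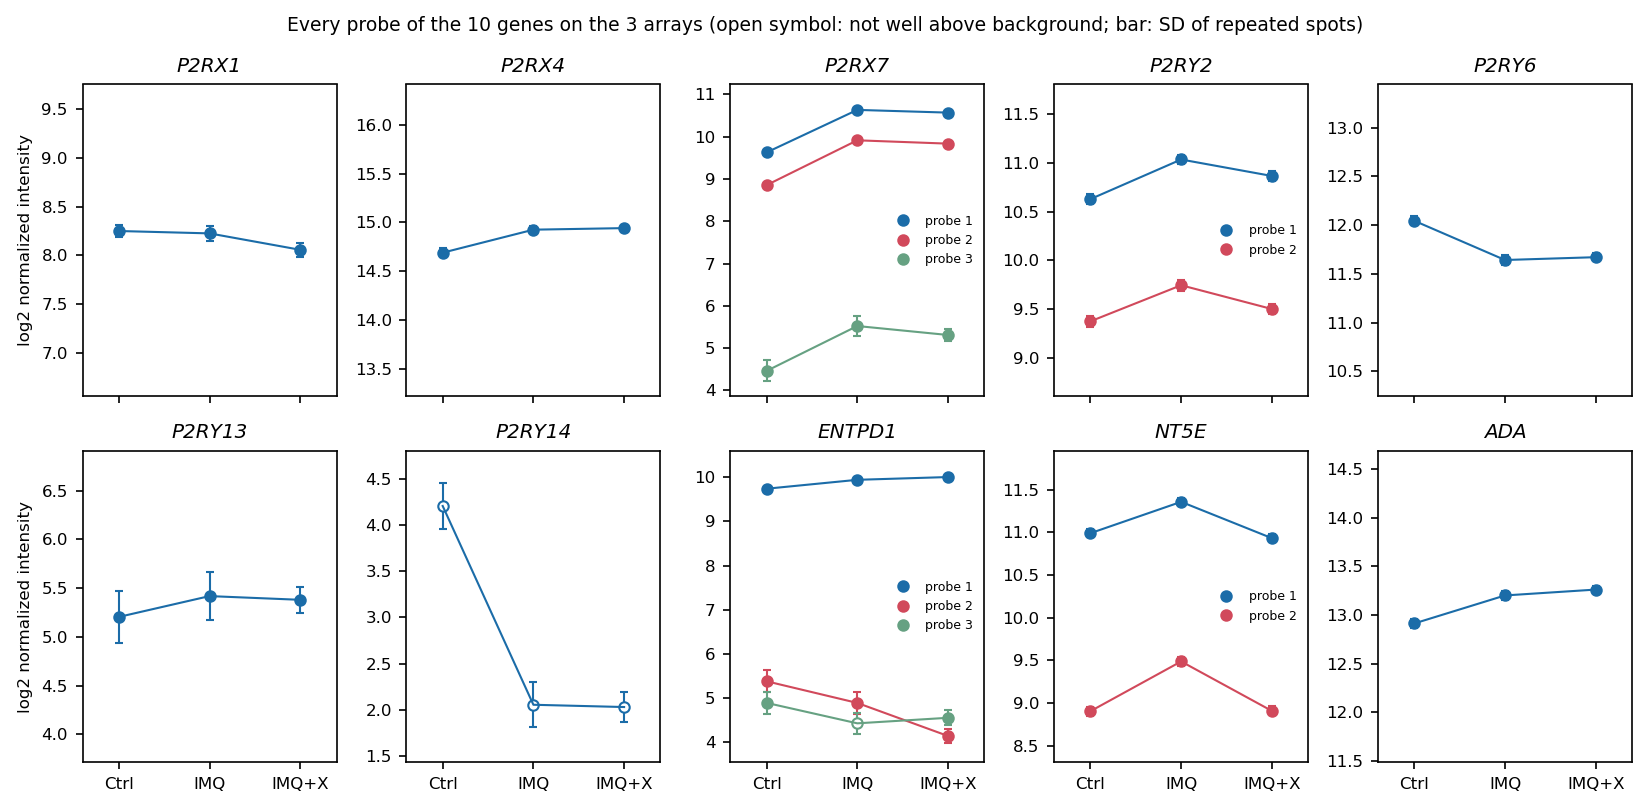
Log2 normalized intensity (y axis) of each of the 16 probes on the Ctrl, IMQ, and IMQ+X arrays (x axis), 1 panel per gene with probes in the order of the text, each point 1 array. Bars give the SD of repeated spots of the nearest brightness, and open symbols mark values not well above background. P2RX7 is about 1 log2 unit higher on the IMQ array than on the Ctrl array with all 3 probes, and NT5E is highest on the IMQ array with both of its probes.

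Of the P2Y receptors, P2RY2, which binds ATP and UTP, was read by 2 probes. The brighter (chr11:72946916-72946975, plus strand) gave 1584 for Ctrl, 2100 for IMQ, and 1867 for IMQ+X. The other (chr11:72953318-72953377, plus strand) gave 664, 858, and 725. With both probes the order was the same, IMQ highest, IMQ+X in between, and Ctrl lowest. The IMQ array was higher than Ctrl by 0.41 (SD of repeated spots 0.07) and 0.37 (0.08), and IMQ+X was lower than IMQ by -0.17 (0.07) and -0.24 (0.07). Against Ctrl, the IMQ+X array remained higher by 0.24 and 0.13.

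P2RY6, the UDP receptor, has its probe (chr11:73008625-73008684, plus strand) 55.2 kb from the nearest P2RY2 probe. It gave 4223 for Ctrl, 3196 for IMQ, and 3261 for IMQ+X. Both IMQ arrays were lower than Ctrl, by -0.40 (SD of repeated spots 0.07) for IMQ and -0.37 (0.06) for IMQ+X, and they differed from each other by 0.03 (0.06). P2RY2 and P2RY6, neighbours in the genome, thus differed from Ctrl in opposite directions with the authors' normalization. Without normalization the second P2RY2 probe was at -0.038 between IMQ and Ctrl, and for IMQ+X against Ctrl both P2RY2 probes were then below 0, at -0.25 and -0.32, as they were with spike-in scaling, at -0.17 and -0.24.

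P2RY13, an ADP receptor, and P2RY14, the receptor for UDP-glucose, belong to a receptor cluster on chromosome 3. P2RY13 (chr3:151044805-151044864, minus strand) was dim, with 36.9 for Ctrl, 42.8 for IMQ, and 41.6 for IMQ+X. Its differences of 0.21 between IMQ and Ctrl (SD of repeated spots 0.36) and -0.04 between IMQ+X and IMQ (0.28) lay within the noise of repeated spots. P2RY14 (chr3:150930059-150930118, minus strand) gave 18.5, 4.15, and 4.08. None of its 3 values was well above background, so no fold is given, and a difference in this transcript was not detectable at this signal.

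ENTPD1 (CD39), the enzyme that removes ATP and ADP, had 3 probes that did not move together. The brightest (chr10:97605337-97605396, plus strand) gave 857 for Ctrl, 986 for IMQ, and 1030 for IMQ+X. The second (chr10:97636883-97636942, plus strand) gave 41.5, 29.5, and 17.6, and the third (chr10:97629312-97629371, plus strand) gave 29.5, 21.4, and 23.4. The first probe was highest on the IMQ+X array and the dim probes were highest on the Ctrl array. The first differed between IMQ and Ctrl by 0.20 (SD of repeated spots 0.08), the second by -0.49 (0.35), and the third was not well above background on the IMQ array, so that its Ctrl value was at least 1.24-fold higher. With IMQ+X against IMQ, the first differed by 0.06 (0.07) and the second by -0.75 (0.30). No value is given for the remaining probe, whose IMQ+X value lay below the floor of the IMQ array. Against Ctrl, the second probe was lower on the IMQ+X array by -1.24 (0.30), and the first was higher by 0.26 (0.07). The size of the second probe's differences did not hold. With normexp background correction it was at -0.39 for IMQ+X against Ctrl and -0.12 for IMQ+X against IMQ. Its IMQ+X value, log2 4.13, lay just above the floor of that array, 4.08. The pixels of that spot were also uneven, at a percentile of 97.5. A direction for ENTPD1 therefore depends on which probe is read, and the transcript forms that each probe detects were not assigned.

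NT5E (CD73), the enzyme that makes adenosine from AMP, had 2 probes that moved alike. The brighter (chr6:86204891-86204950, plus strand) gave 2034 for Ctrl, 2624 for IMQ, and 1954 for IMQ+X. The junction probe shown above gave 480, 718, and 481. The pixels of these spots were more uneven than those of most spots of like brightness. In the same order of arrays, the percentiles were 93.4, 93.8, and 72.7 for the brighter probe. For the junction probe they were 86.5, 87.0, and 96.9. The IMQ array was the highest with both probes, and the Ctrl and IMQ+X arrays were close together. IMQ was higher than Ctrl by 0.37 (SD of repeated spots 0.07) and 0.58 (0.08), or 1.29- and 1.498-fold. IMQ+X was lower than IMQ by -0.43 (0.07) and -0.58 (0.07), or 1.34- and 1.49-fold, and it differed from Ctrl by -0.06 (0.07) and 0.00 (0.08). Both differences use the same IMQ array and are not independent. The position relative to Ctrl depended on the scaling. Without normalization the probes were at -0.020 and 0.17 for IMQ against Ctrl and at -0.56 and -0.40 for IMQ+X against Ctrl, and with spike-in scaling at 0.05 and 0.24, and at -0.48 and -0.33. The difference between IMQ+X and IMQ stayed between -0.56 and -0.39 for the brighter probe and between -0.59 and -0.52 for the junction probe. Of the 19139 genes compared between IMQ+X and IMQ, 8.34% were at least as low as NT5E.

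ADA, which removes adenosine by deamination, gave 7717 for Ctrl, 9418 for IMQ, and 9819 for IMQ+X with its probe at chr20:43248191-43248250 (minus strand). The IMQ arrays were both higher than Ctrl, by 0.29 (SD of repeated spots 0.06) for IMQ and 0.35 (0.06) for IMQ+X, and the difference between them was 0.06 (0.06). NT5E and ADA, which make and remove adenosine, were thus both brighter on the IMQ array with the authors' normalization. Without normalization NT5E was at -0.020 and ADA at -0.053. With spike-in scaling they were at 0.05 and 0.02, within the noise of repeated spots (0.07 and 0.06).

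Over the genes read by their brightest probe, 9 of the 10 could be compared on each pair of arrays. Between IMQ and Ctrl, 7 were higher and 2 lower (2 and 7 without normalization, 4 and 5 under spike-in scaling), with a median difference of 0.24 against -0.03 for all 19199 genes compared. P2RX7 was the only 1 of the 9 that was at least 2-fold higher, where 4.31% of all genes were, and 0 were at least 2-fold lower, where 4.6% of all genes were. Of all genes, 4.28% were at least as high as P2RX7. For IMQ+X against IMQ, 4 were higher and 5 lower, with a median of -0.04 against -0.02 for all genes. None (0 of the 9) differed 2-fold there, where 0.721% of all genes were 2-fold higher and 0.914% lower, 1.64% together. For IMQ+X against Ctrl, 6 were higher and 3 lower, and the median was 0.24 against 0.00 for all genes. Again 0 of the 9 differed 2-fold, where 3.43% of all genes were higher and 6.12% lower, 9.55% together. With P2RX7 at the threshold and 9 genes in all, these counts describe the list and do not set it apart from other genes.

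**Figure D2:**
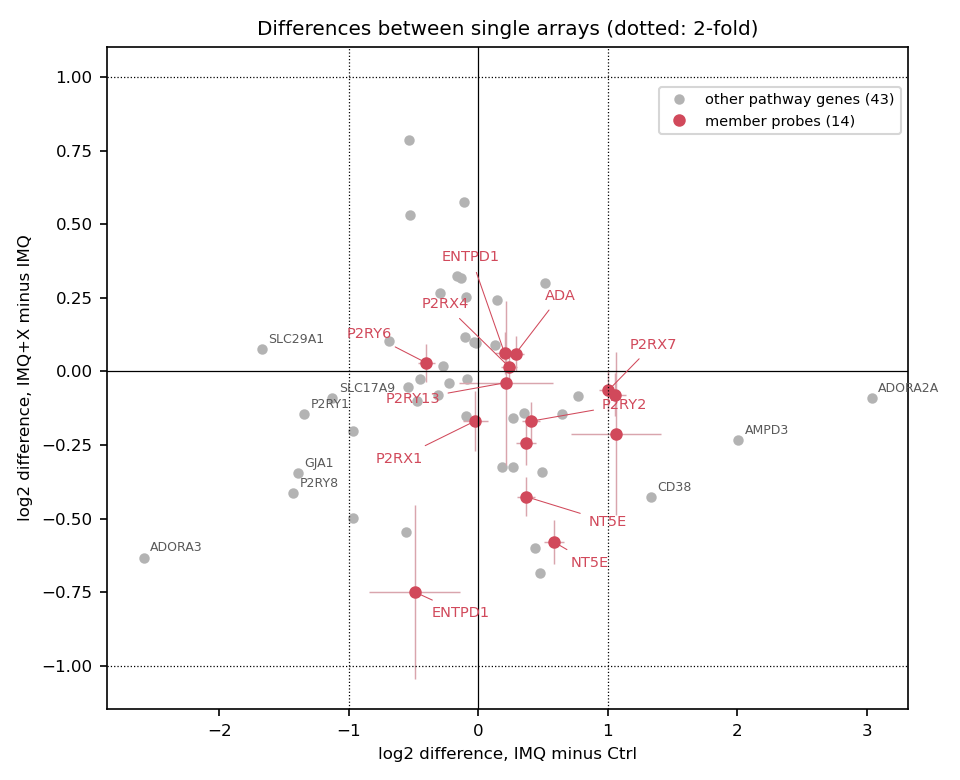
Log2 difference between IMQ and Ctrl (x axis) against that between IMQ+X and IMQ (y axis), for the 14 member probes with both values (red, bars for the SD of repeated spots) and for 43 other genes of the pathway (grey). The axes share the IMQ array. The P2RX7 probes lie at 1.005 to 1.06 on the x axis and close to 0 on the y axis, and the NT5E probes lie to the right of 0 and below it.

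The direction of a small difference depended on how the arrays were scaled. Without normalization the median of all genes was -0.49 between IMQ and Ctrl, and with scaling to 10 spike-in probes it was -0.41. Under these and the other scalings, 6 in all, the P2RX7 difference ranged from 0.62 to 1.06, P2RY2 from 0.02 to 0.47, and P2RY6 from -0.77 to -0.33. Those were the only 3 of the 9 genes whose direction between IMQ and Ctrl held under each scaling. Taken relative to the median of all genes under the same scaling, 8 of the 9 held their direction, with P2RX7 between 0.96 and 1.11, NT5E between 0.39 and 0.47, and P2RY6 between -0.42 and -0.28. The exception, P2RX1, was near 0 throughout. In the comparison of IMQ+X with IMQ, NT5E ranged from -0.56 to -0.39, and P2RX1, P2RX7, and P2RY2 were the other genes that stayed below 0 under each scaling, P2RX7 with values from -0.18 to -0.0021. Relative to the median of all genes, P2RX7 reached 0.0072. Its dim coding probe was above 0 with 75th percentile scaling (0.13), no normalization (0.15), and spike-in scaling (0.15).

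**Figure D3:**
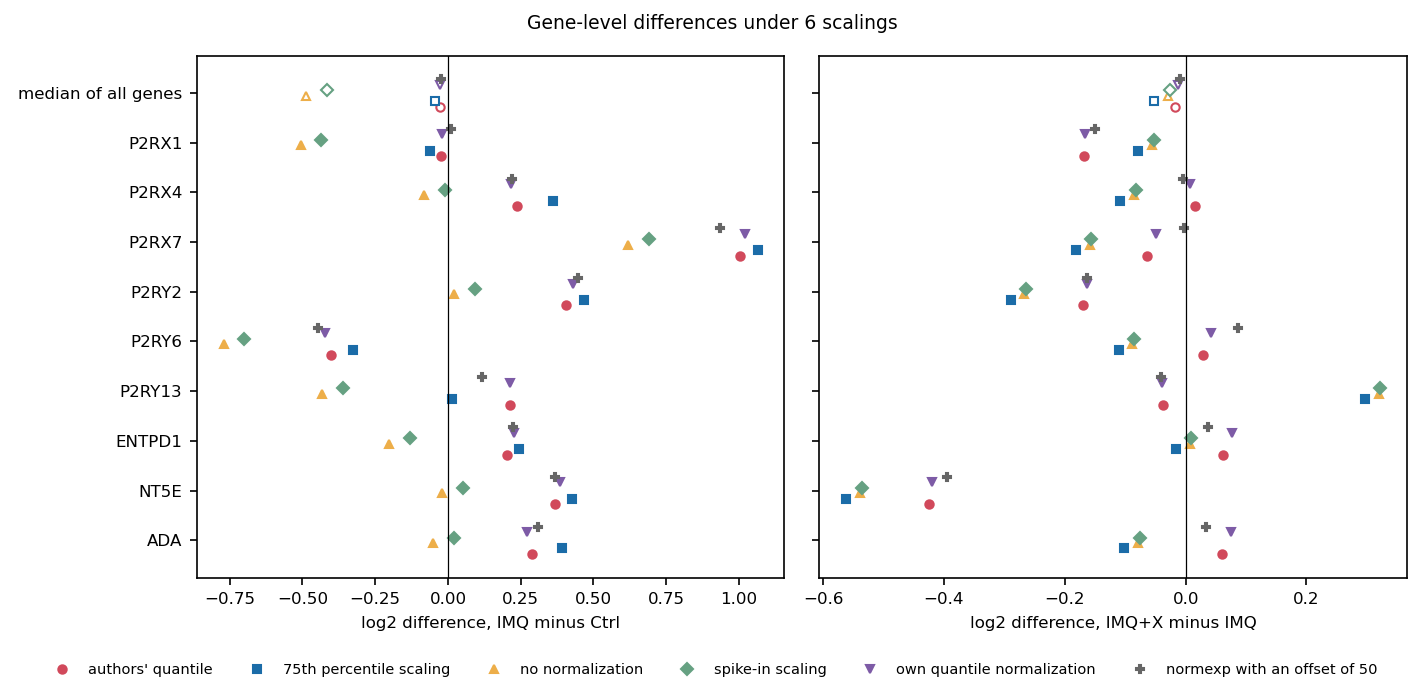
Log2 difference of each of the 9 genes (rows) under 6 scalings (symbols), for IMQ minus Ctrl on the left and IMQ+X minus IMQ on the right, with the median of all genes in the top row (open symbols). On the left, the 2 scalings that do not force the arrays to a common distribution or percentile shift the genes together with the median of all genes, and P2RX7 lies to the right of the others in each. On the right, NT5E lies farthest to the left in each.

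The other genes of the pathway were taken from a list of 46, of which 45 had a probe. Between IMQ and Ctrl, 3 of the 43 compared were at least 2-fold higher and 6 at least 2-fold lower, 9 in all, where 8.91% of all genes differed 2-fold. Their median difference was -0.11. Between the IMQ+X and IMQ arrays, the value reached 2-fold in 0 of 44, where it did in 1.64% of all genes. For ENTPD3 that value, 0.70 or 1.63-fold, was a lower bound, because its probe was not well above background on the IMQ array. A 2-fold difference in ENTPD3 is therefore not excluded. The IMQ+X array was at least 2-fold higher than Ctrl in 3 of 44 and lower in 9, where 3.43% and 6.12% of all genes were.

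Receptors of adenosine, the product of NT5E, held the largest differences of the pathway. ADORA2A, the receptor known to restrain macrophage activation, gave 54.3 for Ctrl, 446 for IMQ, and 418 for IMQ+X. Its IMQ array was higher than Ctrl by 3.04 (SD of repeated spots 0.25), and a second probe by 2.08 (0.30). ADORA3 gave 279, 46.4, and 29.9, and was lower on the IMQ array by -2.59 (0.25). Both arrays that received IMQ stood apart from Ctrl for these receptors, in opposite directions, while ADORA1 and ADORA2B differed by less than 2-fold.

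The P2Y receptors outside the 10 genes were below Ctrl on the IMQ array in 5 of 5 cases, with a median of -0.96 against -0.03 for all genes. Being below Ctrl was common, since 50.4% of all 19199 genes compared were at -0.02 or lower. P2RY8, a receptor named with this family by its sequence, gave 3293, 1222, and 918, a difference of -1.43 (SD of repeated spots 0.07) between IMQ and Ctrl. P2RY1, an ADP receptor, gave 240, 94.5, and 85.5, with differences of -1.34, -0.60, and -0.67 across its 3 probes. P2RY12, another ADP receptor, whose probe lies 10.9 kb from that of P2RY13, was lower by -0.96 (0.27). All 4 P2X genes outside the 10 were also below Ctrl, none by 2-fold, with a median of -0.21, although a second P2RX5 probe gave 0.14. The 9 receptor genes lay below Ctrl under each of the 6 scalings when read from their brightest probe. So did the median of all genes, which ranged from -0.49 without normalization to -0.02 with normexp. Of them, P2RX3 at -0.09 (SD of repeated spots 0.10), P2RX6 at -0.13 (0.35), P2RY4 at -0.16 (0.19), and P2RY10 at -0.10 (0.34) lay within the noise of repeated spots, and P2RX6 reached 0.0031 relative to the median of all genes.

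For the release of ATP, PANX1, the pannexin channel of macrophages, was higher on the IMQ array by 0.77 (SD of repeated spots 0.07), while SLC17A9, the vesicular nucleotide transporter, was lower by -1.13 (0.06) and GJA1, connexin 43, by -1.39 (0.17). The probes of PANX2 differed in size, with 0.13 (0.12) from the brightest and 1.77 (0.27) from a dimmer one. Of the other nucleotide-hydrolysing enzymes listed, 9 of the 13 compared were higher and 4 lower, with a median of 0.35 against -0.03 for all genes. Of the higher ones, only CD38 and ENTPD4 stayed above Ctrl under each of the 6 scalings, and the lower ones all stayed below it. Relative to the median of all genes, each of the 13 kept its direction. ENPP3 at 0.27 (0.35) and ALPL at 0.19 (0.21) lay within the noise of repeated spots. CD38, which consumes NAD, was higher by 1.33 (0.26). ACPP was lower by -0.97 (0.08), and by -1.10 (0.17) with a second probe. Of the 6 relatives of CD39 that could be compared, 5 were higher and ENTPD6 was lower, all by less than 2-fold. ENTPD4, at 0.65 (0.07), and ENTPD6, at -0.22 (0.07), were those that held their direction under each scaling. For the handling of adenosine and AMP beyond ADA, AMPD3, an AMP deaminase, was higher by 2.01 (0.06) and SLC29A1, an equilibrative nucleoside transporter, lower by -1.67 (0.07). In this list 9 of the 11 genes compared were lower and 2 higher, with a median of -0.45 against -0.03 for all genes. Of the lower ones, SLC29A3 at -0.014 (0.08) and SLC28A1 at -0.03 (0.115) lay within the noise of repeated spots. Relative to the median of all genes, SLC29A3 was above 0 under each scaling, from 0.014 to 0.069. SLC28A1 and AMPD2 crossed 0 there. ADK, at -0.69 (0.07), and PNP, at -0.54 (0.06), were among the lower genes. ADA2, listed as CECR1, was lower by -0.45 (0.08), the opposite direction to ADA with the authors' normalization. Without normalization ADA was also below Ctrl, at -0.053.

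**Figure D4:**
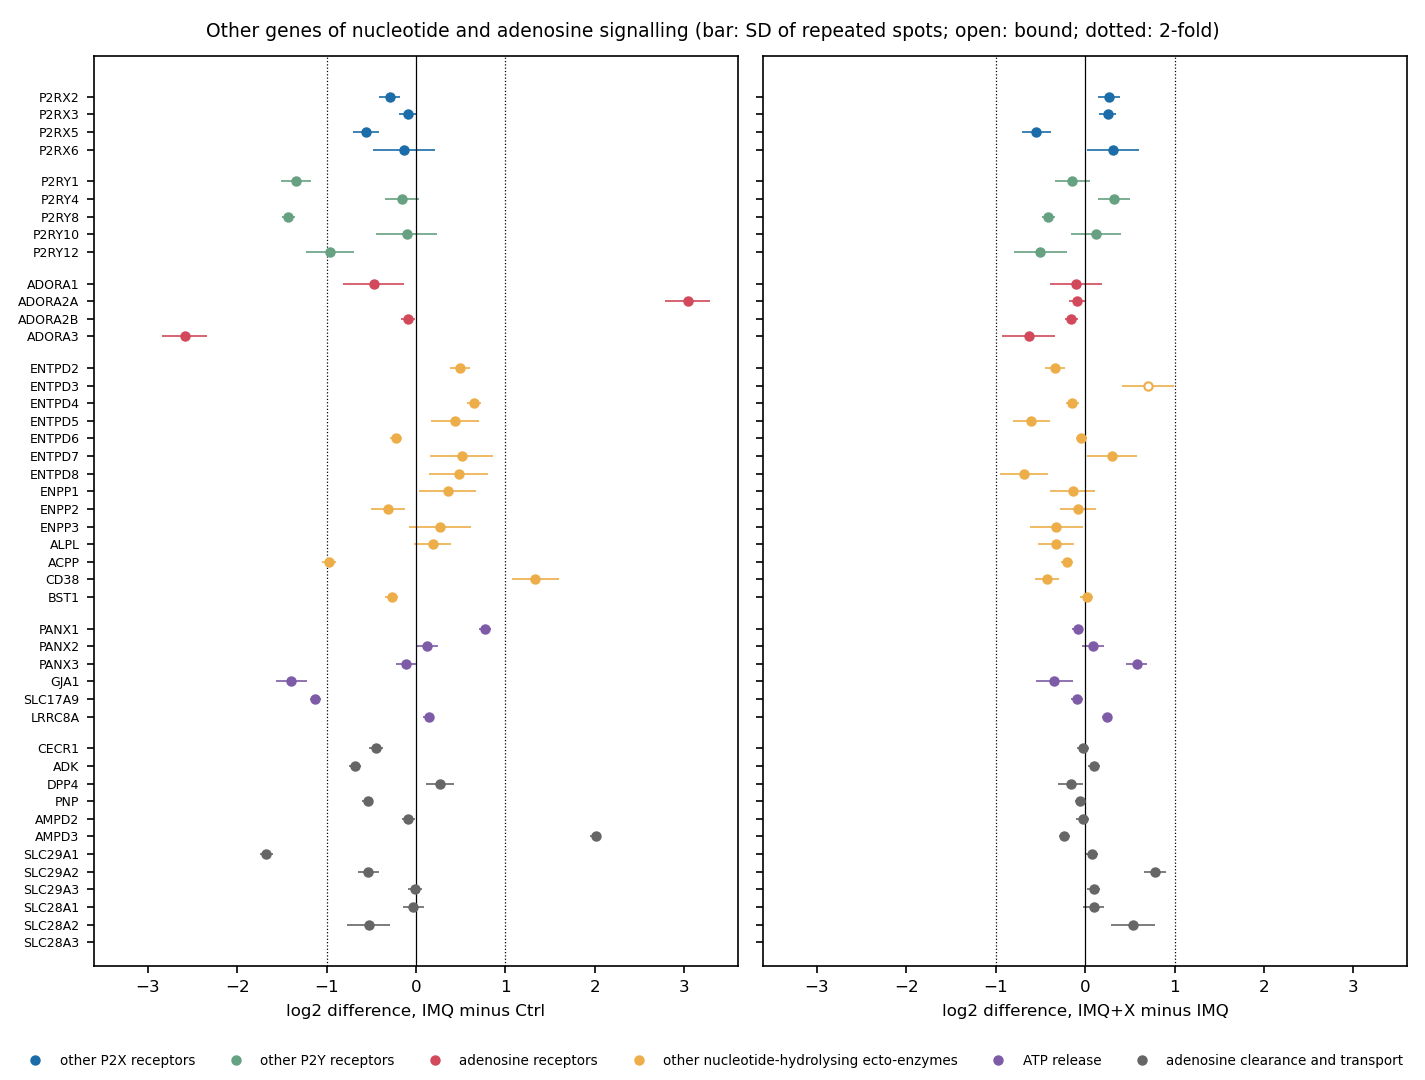
Log2 differences (x axes) of 45 other genes of the pathway (rows, coloured by role), for IMQ minus Ctrl on the left and IMQ+X minus IMQ on the right, with bars for the SD of repeated spots and open symbols for bounds. A row without a symbol has no value because its probe was not well above background on both arrays. The left panel spreads from -2.59 to 3.04, and no value in the right panel reaches a 2-fold difference. The value of ENTPD3 there, 0.70, is a lower bound.

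The genes nearest to P2RX7 in both differences were sought among 18335 genes with both values and well above background on all 3 arrays. They were FAM188A at a distance of 0.017, MAP3K4 at 0.028, and LINC00930 at 0.029 in log2 units. Within 0.1 lay 70 genes. The likeness rests on 3 arrays.

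The arrays had 72.0%, 66.6%, and 71.9% of probes well above background for Ctrl, IMQ, and IMQ+X. All 6 macrophage and monocyte markers with a probe were well above background on each array, with log2 intensities from 13.2 to 17.9. Among markers of other cell types, the 3 T cell, 3 B cell, and 2 platelet genes were also well above background, the T cell genes from 6.58 to 8.39. Of the 2 fibroblast collagens, COL1A1 was well above background on each array, at 5.24, 5.30, and 5.19, and COL1A2 was on none. The log2 of the summed markers on the Ctrl, IMQ, and IMQ+X arrays was 19.3, 19.0, and 19.0 for macrophages and monocytes, 12.2, 11.9, and 12.1 for B cells, mostly from CD79A, 9.43, 9.21, and 9.45 for T cells, 8.29, 8.79, and 8.60 for platelets, and 6.47, 6.12, and 6.81 for keratinocytes. Among the macrophage and monocyte markers, CD14 was at 14.4, 13.7, and 13.2. All samples were cultures of the THP-1 line, so these markers are given as transcripts and not as a measure of other cell types. Whether any other cells contributed to the values above was not tested.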

How the data were processed

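THP-1 macrophages were measured on 3 one-colour Agilent arrays, 1 per condition. The authors deposited scanner output (Feature Extraction 10.5.1.1, per the file headers) with an intensity for each spot, and a table of raw and quantile-normalized intensity for each probe. The raw values equalled the scanner values within 0.1% for 57901 of 57901 probes with a single spot. The log2 values used here were computed from the normalized intensities that the authors deposited. Probe positions are those of the scanner files (hg19), and exons or untranslated regions were not assigned from gene models.

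The 10 genes and the lists were chosen with earlier results of these data known. Every probe of the 10 genes was reported. Other pathway genes were named if they differed at least 2-fold between IMQ and Ctrl or between IMQ+X and IMQ, or if they take part in the same step as a gene reported, and the 3 genes nearest to the gene with the largest difference were named by Euclidean distance. Each gene was represented by the probe whose log2 intensity was highest on average. A value not well above background was set to the higher of itself and a floor, the lowest value among probes well above background (log2 4.04 for Ctrl, 4.57 for IMQ, and 4.08 for IMQ+X). A fold against it is a bound. None was computed where both arrays were dim, or where the value above background did not exceed the one set for the dim array. The SD of a difference was taken from the 31 probes nearest in brightness among 300 probes with 10 spots each. No test was run, since there was 1 array per condition. The calculation was tested on simulated data. Alternatives were other scalings (75th percentile, none, spike-in, a repeated quantile normalization, and normexp with an offset of 50), other filters, other choices of probe, and thresholds of 1.5- and 4-fold. Python 3.11.15, pandas 2.3.3, numpy 2.4.6, matplotlib 3.10.9, R 4.3.3, and limma 3.58.1 were used.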

Additional observations from a re-analysis of the deposited data

How the results depend on the processing

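The 9 members compared gave 243 values under alternatives, of which 175 were within 1 SD of repeated spots of the reported value. In 36 the sign changed, 16 of them for a reported difference larger than that SD and 20 for one within it. The median difference of the members between IMQ and Ctrl, 0.24, became 0.36 with 75th percentile scaling, -0.012 with spike-in scaling, and -0.084 with no normalization. For IMQ+X against Ctrl it became -0.12 under spike-in scaling and -0.19 with no normalization. For IMQ+X against IMQ it became -0.11 with 75th percentile scaling and -0.12 with the mean of the probes. The number of members 2-fold different between IMQ and Ctrl, 1, became 0 under normexp, spike-in scaling, or no normalization, and at 4-fold, and 2 with no floor and no filter. For IMQ+X against Ctrl it became 1 at 1.5-fold and 1 with no floor and no filter, against 0. For the other pathway genes, the count of 9 between IMQ and Ctrl became 15 with no normalization, 15 with spike-in scaling (2 higher and 13 lower, against 3 and 6), 14 at 1.5-fold, and 3 at 4-fold. That of 12 between IMQ+X and Ctrl became 2 at 4-fold. That of 0 between IMQ+X and IMQ became 5 at 1.5-fold and 1 each with 75th percentile scaling, no floor and no filter, spike-in scaling, and no normalization. The 16 reversals of differences larger than the noise were as follows. Between IMQ and Ctrl without normalization, P2RX4 was -0.084, ENTPD1 -0.20, NT5E -0.020, and ADA -0.053, and with spike-in scaling P2RX4 was -0.012 and ENTPD1 -0.13. For IMQ+X against Ctrl without normalization, P2RX4 was -0.17, P2RY2 -0.25, ENTPD1 -0.19, and ADA -0.13, and with spike-in scaling they were -0.094, -0.17, -0.12, and -0.057. With the mean of the probes ENTPD1 was -0.20 between IMQ and Ctrl and -0.44 between IMQ+X and Ctrl. The dim P2RY13 probe also lay below Ctrl without normalization, at -0.43. Both scalings lower the median of all genes on the IMQ arrays. The cause was not tested. Signal over background limited P2RY14 and the dim probes of ENTPD1. No replicate could be left out, and no slide could be used as a block, since each condition had 1 array on the same slide. No paired analysis was possible because each condition had 1 sample.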
